A study of Mus musculus with 90 samples.

Results

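The cytochrome P450 genes Cyp2b10, Cyp2b9, Cyp2b13, Cyp2a4 and Cyp2a5, which lie together on mouse chromosome 7, are described across the livers of 90 animals. They were taken by their symbols from the deposited tables and are 5 of the 18223 genes there. Liver RNA was sequenced in 41 vehicle and 49 zileuton animals with 1 library per animal, in a series titled as a study of zileuton liver toxicity. All were female Diversity Outbred (J:DO) mice of 6 to 20 weeks, from a stock bred so that no 2 animals have the same mix of founder alleles. The vehicle group was given sterile distilled water and the zileuton group 300 mg of zileuton, a 5-lipoxygenase inhibitor, per kg of body weight. Both were dosed by mouth every day over 7 days. The vehicle group had 29 agouti, 6 black and 6 white animals, and the zileuton group 34 agouti, 6 black and 9 white. No transgene or deletion is given for any animal.

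Cytochrome P450 enzymes of these subfamilies sit in the endoplasmic reticulum of hepatocytes, where they oxidise drugs, steroids and other fat-soluble compounds with electrons passed on by P450 oxidoreductase (Por). Cyp2b10 is the textbook target of the nuclear receptor CAR (Nr1i3), the receptor through which phenobarbital acts. Cyp2b9 and Cyp2b13 are known as female-predominant liver genes whose pattern follows growth hormone. Cyp2a4 is a female-predominant steroid hydroxylase, and Cyp2a5 is the coumarin and nicotine oxidase of mouse liver. Dbp, Tef and Hlf, the PAR bZIP factors driven by the circadian clock, are known to act on Cyp2a4 and Cyp2a5.

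The 5 genes are all on the plus strand. On GRCm38, which is mm10, Cyp2b10 spans 25897620 to 25926624 of chromosome 7, Cyp2b13 26061497 to 26096197, and Cyp2b9 26173411 to 26210661. Cyp2a4 spans 26307169 to 26315088 and Cyp2a5 26835305 to 26843548. Promoter sequence is shown because it lets a reader see how alike the near-identical genes are. It also shows 1 short word, picked from many differences between the members. The windows of Cyp2b10 and Cyp2b9, for example, differed at 66 of 289 aligned bases. Each line gives bases -250 to -41 from the RefSeq start (GRCm38.p6, plus strand), upstream of the annotated transcript in both RefSeq and GENCODE. Capitals mark TTGCATAA, which is the PAR bZIP core word TTATGNAA read on the other strand, or the 8 bases aligned to it in Cyp2b9.
Cyp2b10 (chr7:25897408-25897617): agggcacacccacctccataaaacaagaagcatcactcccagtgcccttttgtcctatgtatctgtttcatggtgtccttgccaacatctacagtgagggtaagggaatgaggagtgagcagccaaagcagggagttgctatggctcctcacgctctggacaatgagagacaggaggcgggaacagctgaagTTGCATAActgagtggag
Cyp2b9 (chr7:26173159-26173368): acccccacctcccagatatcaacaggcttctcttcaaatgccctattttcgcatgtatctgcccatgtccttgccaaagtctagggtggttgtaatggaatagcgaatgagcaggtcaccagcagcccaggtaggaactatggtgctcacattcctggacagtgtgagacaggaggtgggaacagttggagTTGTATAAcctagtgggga
Cyp2a4 (chr7:26306942-26307151): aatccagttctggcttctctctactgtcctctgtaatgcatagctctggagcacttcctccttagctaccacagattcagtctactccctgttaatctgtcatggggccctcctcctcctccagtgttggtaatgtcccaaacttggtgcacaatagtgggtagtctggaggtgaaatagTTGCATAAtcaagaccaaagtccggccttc
Cyp2a5 (chr7:26835089-26835298): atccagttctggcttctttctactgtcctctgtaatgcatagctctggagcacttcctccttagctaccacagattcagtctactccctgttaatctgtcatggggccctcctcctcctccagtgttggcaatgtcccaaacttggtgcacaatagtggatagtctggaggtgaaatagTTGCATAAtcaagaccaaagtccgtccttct

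The capitals in Cyp2b10, Cyp2a4 and Cyp2a5 begin at bases -58, -70 and -71. A match to TTATGNAA on either strand was found in 3.38% of all 32851 RefSeq windows of 300 bases (250 before to 50 after a start). Cyp2b9 and Cyp2b13 had TTGTATAA at the aligned bases, the change C4T when bases are counted from 1 at the 5′ end of TTGCATAA. Over the whole window Cyp2b13 differed from Cyp2b9 by T48C and C104T, counted from the 5′ end of the Cyp2b9 window. Cyp2a4 differed from Cyp2a5 by T18C, C130T, A160G, T204G and C269T, counted from the 5′ end of the Cyp2a5 window. The nuclear receptor half-site AGGTCA, searched on both strands and so including its complement TGACCT, was in the windows of Cyp2b9, Cyp2b13, Cyp2a4 and Cyp2a5 and in 16.3% of all windows. The match began at base -138 in Cyp2b9 and Cyp2b13. In Cyp2a4 and Cyp2a5 it began after the start, at bases 31 and 30, and so outside the printed stretch. Cyp2b10 had no match to AGGTCA in this window. None of the 5 windows held a direct repeat of AGGTCA spaced by 4 bases, the STAT5 word TTCNNNGAA, the PAR bZIP variant TTACGNAA or the HNF6 word ATTGAT, which 0.0152%, 8.3%, 0.627% and 7.54% of all windows held. A match is a string of letters and not a measured site.

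The Cyp2a4 and Cyp2a5 pair is near-identical in its transcripts too, and the Cyp2b9 and Cyp2b13 pair less so. Shared sequence limits how far the members can be told apart. The coding sequences of Cyp2a4 and Cyp2a5 were 98.4% identical, with 23 differences over 1482 bases. Those of Cyp2b9 and Cyp2b13 were 92.7% identical over 1473 bases, and Cyp2b10 shared 87.8% with Cyp2b9 and 88.7% with Cyp2b13. Of all 50-base words of the transcript, 38% in Cyp2a4 and 40.8% in Cyp2a5 also occurred in another gene. Most of these were shared within the pair, with 36.1% of the words of Cyp2a4 found in Cyp2a5 and 31% of those of Cyp2a5 in Cyp2a4. The share found in any other gene was 27.3% in Cyp2b13, 11.2% in Cyp2b9 and 10.2% in Cyp2b10. Only 10.8% of the words of Cyp2b13 were in Cyp2b9, and its other shared words lay in genes outside the pair, among them Cyp2b10, Cyp2b19, Cyp2b23 and Gm45225. Of 100-base words, 11.2% of those of Cyp2a4 and 9.56% of those of Cyp2a5 were shared within their pair. For Cyp2b9 and Cyp2b13 it was 1.18% each, though 9.29% of those of Cyp2b13 occurred in some other gene. The counting tool that divided such reads is not given in the sources used here, so the split within each pair, and for Cyp2b13 also the split with genes outside it, is uncertain. In a Diversity Outbred mouse the founder alleles can differ from this reference. Sums of each pair are given below, and they do not cover reads shared with other genes.

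Values are CPM, the estimated counts of a gene brought to a common library total, with TMM factors. Total estimated counts ran from 12664579 to 41360187 with a median of 25535799. Changes are log2 fold changes of zileuton over vehicle ± standard error from edgeR's quasi-likelihood test of 13248 genes. Called means that the p adjusted by Benjamini and Hochberg was under 0.05. The median log2 fold change of all tested genes was -0.01. In bulk liver RNA, fewer cells of a type and less RNA per cell cannot be told apart. Hepatocyte markers were abundant in every library, with a summed level of 101579 to 197132 CPM in vehicle and 81188 to 180248 CPM in zileuton animals. Of the 8 markers, 5 were called lower, led by Trf (-0.37 ± 0.06, adjusted p = 1.47e-06) and Apoa1 (-0.30 ± 0.09, adjusted p = 0.00786), and 0 higher. Over all genes tested, 14.8% were called lower and 14.4% higher.

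Libraries of the vehicle group did not all lie with their group. Vehicle replicates 15, 28 and 37 lay nearer to the zileuton median than to their own in 4 of 4 genes that mark the exposure in these data, the P450 genes Cyp2c29 and Cyp2c55 and the clock genes Dbp and Arntl. No zileuton library lay nearer to the vehicle median in 4 of 4, and 1 did in 3 of 4. Cyp2c55 was 35.2, 37.7 and 236 CPM in these 3 vehicle libraries against a vehicle median of 3.55 and a zileuton median of 58.5. Among the members, replicate 37 held the highest Cyp2b10 of either group at 3165 CPM, and replicates 15, 28 and 37 ranked 1, 3 and 4 of 41 for Cyp2a5. The members' fold changes are given with all animals and without these 3 libraries, a setting chosen after seeing the data, as are the levels, shares and vehicle relations that the text turns on. These 3 libraries were picked for zileuton-like levels, so leaving them out can by itself widen the group difference in genes that vary with those 4. Cyp2c29 and Cyp2c55 are among the genes most like Cyp2b10, as given below. Smaller p values without the 3 are therefore no separate support. The ranges and counts of animals are given with all animals.

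Cyp2b10, the CAR target, rose with zileuton. It ran from 24.6 to 3165 CPM with a median of 87.6 in vehicle animals, and from 51.4 to 1840 with a median of 351 in zileuton animals. The ranges overlapped fully, since no zileuton animal lay above the highest vehicle animal, replicate 37, but the second highest vehicle animal was at 270 CPM. Of 49 zileuton animals, 45 were above the vehicle median, and 1 of 41 vehicle animals was above the zileuton median. The log2 fold change was 1.42 ± 0.30 (adjusted p = 1.18e-04). Without vehicle replicate 37 alone it was 2.19, and without replicates 15, 28 and 37 it was 2.24 ± 0.24 (adjusted p = 1.32e-12). It was 1.87 ± 0.25 with limma-voom quality weights and 2.28 ± 0.29 in agouti animals alone, which leave out the black replicate 37. With a score of clock genes as a covariate the call was lost (0.70 ± 0.34, adjusted p = 0.279).

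Cyp2a5, the coumarin oxidase, also rose. Vehicle animals ran from 94.0 to 3794 CPM with a median of 925, and zileuton animals from 720 to 5649 with a median of 1946. The groups overlapped, with 46 of 49 zileuton animals above the vehicle median and 7 above the highest vehicle animal. The log2 fold change was 1.09 ± 0.20 (adjusted p = 6.73e-06), and 1.30 ± 0.19 without vehicle replicates 15, 28 and 37 (adjusted p = 3.70e-08). The call was lost with position within a run as a covariate (0.57 ± 0.42, adjusted p = 0.526) and with a score of clock genes as a covariate (0.00 ± 0.21, adjusted p = 0.995). The low end of the vehicle range has no counterpart under zileuton, where the lowest animal stood at 720 CPM against a vehicle lower quartile of 557.

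Cyp2a4, the steroid hydroxylase and near copy of Cyp2a5, rose by less. It ran from 141 to 2069 CPM with a median of 1015 in vehicle and from 278 to 2806 with a median of 1488 in zileuton animals. The groups overlapped over most of their range, and 36 of 49 zileuton animals were above the vehicle median. The log2 fold change of 0.38 ± 0.14 was called (adjusted p = 0.0349), as it was without replicates 15, 28 and 37 (0.42 ± 0.15, adjusted p = 0.0208). The call was lost in agouti animals alone (0.28 ± 0.18, adjusted p = 0.286), and without the library highest in skeletal muscle markers in each group, vehicle replicate 8 and zileuton replicate 24 (0.35 ± 0.14, adjusted p = 0.0595). It was also lost without zileuton replicate 12 (adjusted p = 0.0513).

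Cyp2b13 and Cyp2b9, the female-predominant pair, were not called. Cyp2b13 ran from 16.6 to 836 CPM with a median of 149 in vehicle and from 1.25 to 710 with a median of 251 in zileuton animals, of which 36 of 49 were above the vehicle median. Its log2 fold change was 0.51 ± 0.27 (adjusted p = 0.147), with an interval of -0.01 to 1.03. Without vehicle replicate 4, which held the vehicle maximum of 836 CPM, it was 0.65 (adjusted p = 0.0487), and without replicates 15, 28 and 37 it was 0.56 ± 0.27 (adjusted p = 0.111). Cyp2b9 ran from 213 to 1001 CPM with a median of 620 in vehicle and from 0.114 to 1060 with a median of 557 in zileuton animals. Its log2 fold change was -0.09 ± 0.24 (adjusted p = 0.814), with an interval of -0.57 to 0.38, and -0.12 ± 0.25 without vehicle replicates 15, 28 and 37. On a log scale its group means lay further apart, at -0.79 ± 0.46 with limma-voom and -0.75 ± 0.44 on the authors' normalized values as log2(value + 1), and neither passed.

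Of the 5 members, 3 were called higher and 0 lower, where 14.4% of the genes tested were called higher and 14.8% lower. With a change of at least 2-fold, 2 of the 5 were called, where 1.39% of the genes tested were.

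**Figure D1:**
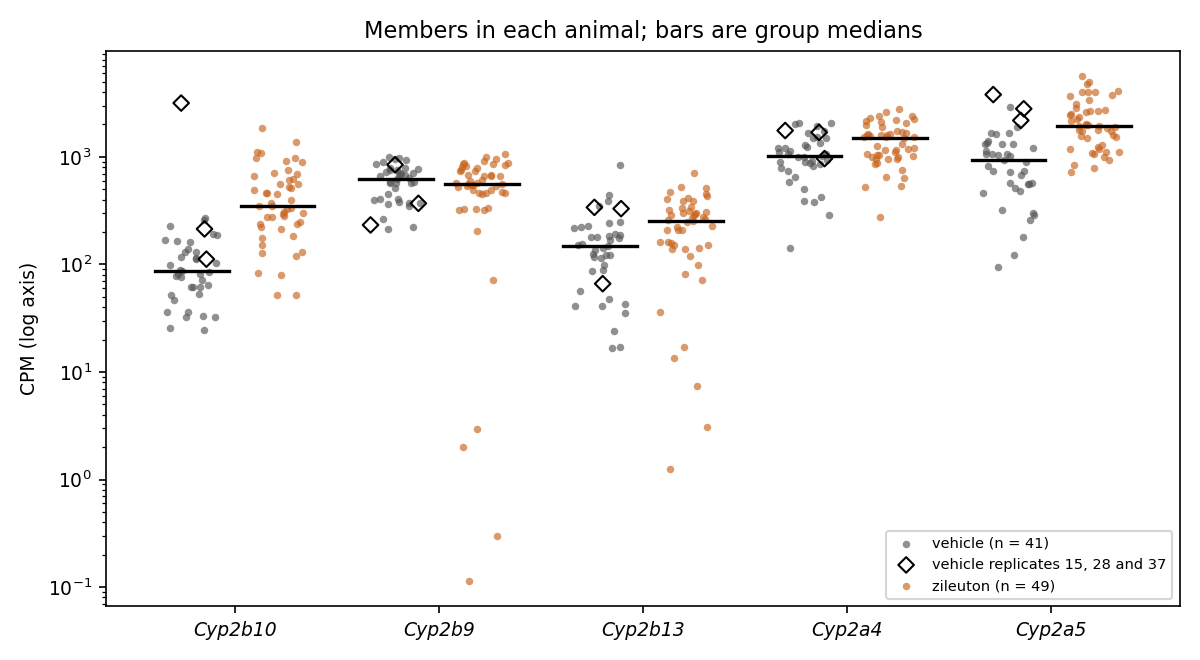
CPM of each member in each animal on a log axis, with grey points for 41 vehicle animals, orange points for 49 zileuton animals and bars for the group medians. Open diamonds are vehicle replicates 15, 28 and 37, and the 4 zileuton points of Cyp2b9 below 5 CPM stand apart from the other 45.

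The lower tail of Cyp2b9 came from a few animals. Zileuton replicates 43, 49, 16 and 23 were at 0.114, 0.298, 2.0 and 2.93 CPM, or 2, 12, 59 and 80 estimated counts. The next zileuton animals were replicate 6 at 71.5 CPM and replicate 42 at 205, and no vehicle animal was under 213. In the same 4 animals Cyp2b13 was at 1.25, 17, 3.05 and 7.46 CPM. Cyp2a4 there was 997 to 1596 CPM and Cyp2a5 1933 to 3689, inside the range of the other zileuton animals. Cyp2b10 was 52.1, 492, 79.4 and 213 CPM. Of these animals 3 were agouti and 1 was white, and they came from 4 different runs of animal numbers. All 90 libraries held Xist at 368 to 1310 CPM. Among 2477 genes with a median of at least 50 CPM, a library had a median of 1 gene and at most 5 genes under 2% of that gene's median, and these 4 libraries had 5, 1, 3 and 2. Cyp2b9 itself was among these genes in all 4, and Cyp2b13 in replicates 43 and 16. Gapdh was among them in zileuton replicates 43 and 16, and also in vehicle replicates 8, 20, 25 and 30. The 4 zileuton animals were picked out after their values were seen, and their number is not tested against the vehicle group.

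The sum of each pair of similar genes does not depend on how reads were split within it, but still does on reads shared with genes outside it. Cyp2a4 plus Cyp2a5 rose from a median of 2031 to 3407 CPM, a log2 fold change of 0.77 ± 0.15 (adjusted p = 3.68e-05), and of 0.90 ± 0.15 without vehicle replicates 15, 28 and 37 (adjusted p = 1.24e-06). Cyp2b9 plus Cyp2b13 had medians of 750 and 858 CPM and a log2 fold change of 0.06 ± 0.22 (adjusted p = 0.856), and also 0.06 ± 0.22 without those 3 (adjusted p = 0.872). The share of Cyp2a5 in its pair ran from 21.6% to 69.4% with a median of 44.1% in vehicle animals and from 34% to 77% with a median of 61.6% in zileuton animals. The share of Cyp2b13 in its pair had medians of 19.9% and 31%. Without vehicle replicates 15, 28 and 37 the vehicle medians were 43% for Cyp2a5 and 17.4% for Cyp2b13.

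Levels of different genes are compared per kilobase of merged exons. In vehicle animals the order of the medians was Cyp2a4 at 584, Cyp2a5 at 446, Cyp2b9 at 331, Cyp2b13 at 79.3 and Cyp2b10 at 41.5 CPM per kilobase. Without vehicle replicates 15, 28 and 37 the order was the same, with 581, 413, 334, 77.6 and 39.2. The ranges from lower to upper quartile overlapped between neighbours in that order except between Cyp2b9 and Cyp2b13, where 40 of 41 animals had more Cyp2b9. In zileuton animals the order was Cyp2a5 at 939, Cyp2a4 at 856, Cyp2b9 at 297, Cyp2b10 at 166 and Cyp2b13 at 134 CPM per kilobase. There only Cyp2a4 and Cyp2b9 were neighbours whose quartile ranges did not overlap, with 45 of 49 animals higher in Cyp2a4. Cyp2a5 was above Cyp2a4 in 31 of 49 zileuton animals, while 29 of 41 vehicle animals had more Cyp2a4. Cyp2b10, the lowest member in vehicle livers, was above Cyp2b13 in 33 of 49 zileuton animals.

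Whether the members differed in response was tested on the difference in log2 CPM between 2 members within each animal, over all 10 pairs, with 100000 permutations of exposure (two-sided, adjusted over the 10 pairs). Of these pairs, 9 passed, in a test that entered no run, position or clock score. Cyp2a5 responded more than its near copy Cyp2a4. Cyp2a4 minus Cyp2a5 was 0.26 ± 0.87 (SD, n = 41) in vehicle and -0.60 ± 0.64 (SD, n = 49) in zileuton animals, a difference of -0.87 ± 0.16 (SE, permutation adjusted p = 4e-05). Only 3 of 49 zileuton animals were above the vehicle median of that difference. Cyp2b13 likewise moved against Cyp2b9, with Cyp2b9 minus Cyp2b13 at 2.15 ± 1.17 (SD) in vehicle and 1.02 ± 1.46 (SD) in zileuton animals, a difference of -1.13 ± 0.28 (SE, permutation adjusted p = 0.0001). Here 9 of 49 zileuton animals were above the vehicle median.

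Cyp2b10 responded more than each other member. The excess was 2.67 ± 0.42 over Cyp2b9, 1.55 ± 0.31 over Cyp2b13 and 1.49 ± 0.29 over Cyp2a4 (permutation adjusted p = 4e-05 each). Over Cyp2a5 it was 0.62 ± 0.30 (permutation adjusted p = 0.0457), and 0.65 without vehicle replicates 15, 28 and 37 (permutation adjusted p = 0.0334). The pair that did not pass was Cyp2b13 and Cyp2a4, with a difference of -0.06 and an interval of -0.83 to 0.71, which is wide. The smallest p these permutations can give is 1e-05. Means on the log scale for pairs with Cyp2b9 include the 4 animals in which it was nearly absent.

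**Figure D2:**
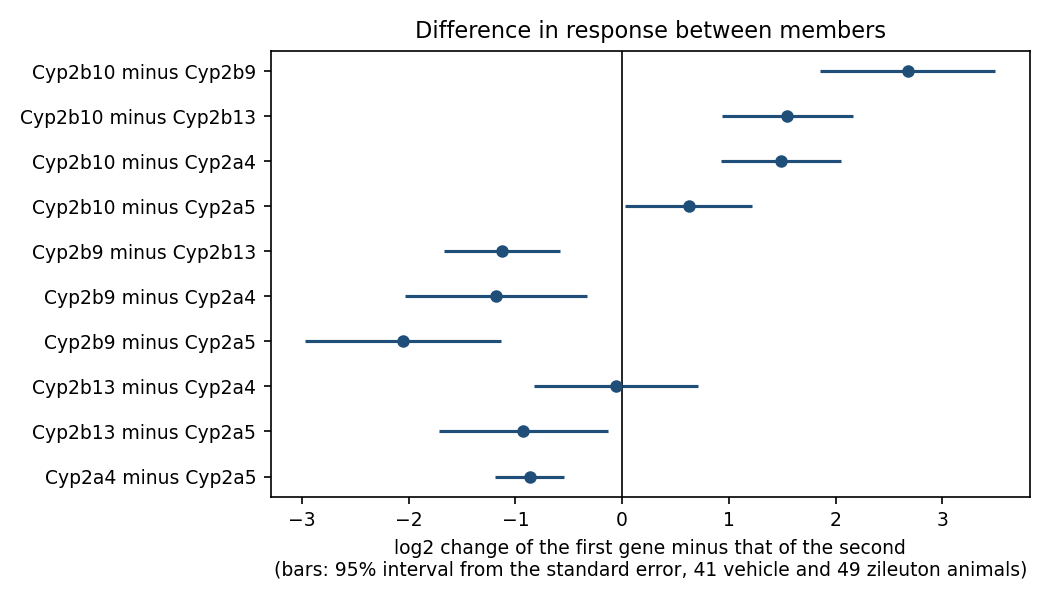
Difference in response for the 10 pairs of members, as the log2 change of the first gene minus that of the second, with bars for 95% intervals over 41 vehicle and 49 zileuton animals. The bars of 9 pairs lie to one side of 0, and that of Cyp2b13 minus Cyp2a4 spans it.

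Animal numbers fall into 8 runs of 50, and each run held vehicle and zileuton animals. The labels do not say what a run was. Mean log2 CPM was higher in zileuton animals in 8 of 8 runs for Cyp2b10, by 0.95 to 3.61, and in 8 of 8 for Cyp2a5, by 0.62 to 2.45. Cyp2a4 was higher in 7 of 8 runs, from -0.19 to 1.45, and Cyp2b13 in 6 of 8, from -1.48 to 1.53. Cyp2b9 was higher in 3 of 8 runs, from -2.60 to 0.37. Runs were small, with 2 zileuton animals in run 5, and 3 vehicle and 4 zileuton animals in run 7. The lowest values of Cyp2b9 and Cyp2b13 were in run 7, which held zileuton replicate 43 with nearly no Cyp2b9. With run as a covariate the log2 fold changes were 1.92 ± 0.26 for Cyp2b10, 1.10 ± 0.20 for Cyp2a5 and 0.38 ± 0.15 for Cyp2a4, and the same 3 members were called. Leaving out run 1, 2 or 6 ended the call of Cyp2a4 (adjusted p = 0.146, 0.146 and 0.109).

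**Figure D3:**
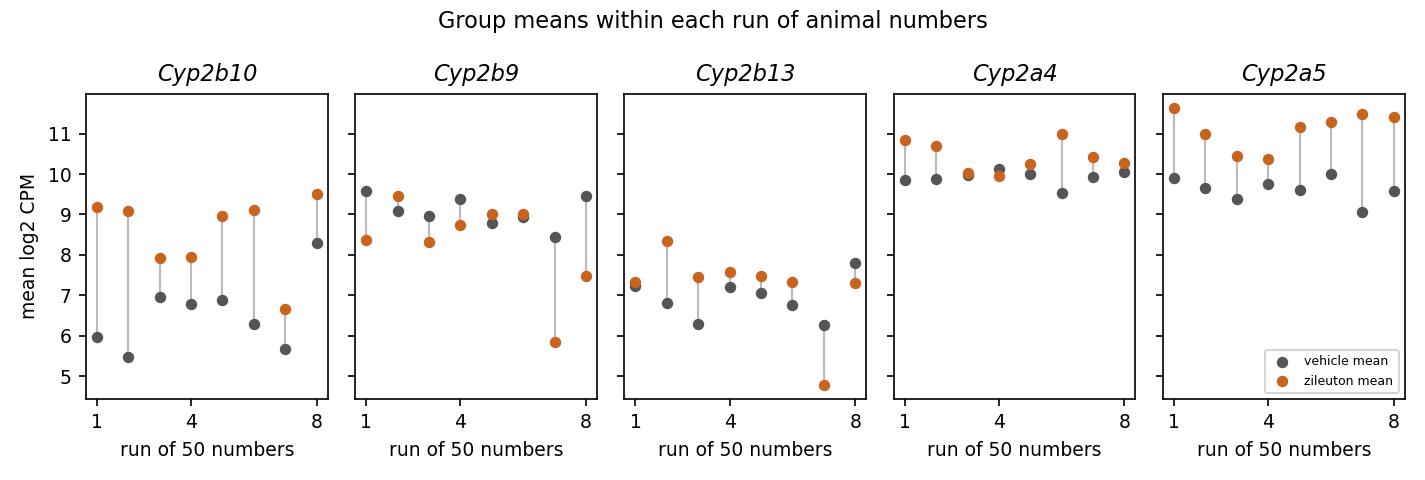
Mean log2 CPM of each member in vehicle (grey) and zileuton (orange) animals within each of 8 runs of 50 animal numbers, joined by a line. Cyp2b10 and Cyp2a5 are higher under zileuton in 8 of 8 runs, and the order of the groups differs between runs for the other members.

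Within a run the groups did not share numbers. Positions 13 to 20 were vehicle and positions 25 to 50 zileuton, so position and exposure cannot be told apart by comparing animals of the same position. With position as a covariate, Cyp2b10 was still called (2.29 ± 0.61, adjusted p = 0.0324). Cyp2a5 was not, as given above, and Cyp2a4 was at -0.01 ± 0.31 (adjusted p = 0.995), and 217 genes of all tested were called in place of 3878.

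Clock genes moved with exposure beside the members. All 11 genes of the Per, Rev-erb and PAR bZIP phase were called higher and all 5 of the Bmal1 phase lower. Dbp, the PAR bZIP factor, ran from 0.308 to 155 CPM with a median of 3.07 in vehicle and from 0.411 to 192 with a median of 74.5 in zileuton animals, a log2 fold change of 2.27 ± 0.42 (adjusted p = 8.31e-06). Arntl, which encodes Bmal1, fell by 1.73 on the log2 scale (SE 0.21, adjusted p = 2.16e-10). A clock score, the mean scaled level of the first group minus that of the second, was entered as a covariate. Cyp2a5 was then not called, as given above, Cyp2a4 was at -0.03 ± 0.21 (adjusted p = 0.959) and Cyp2b10 was not called either. In that fit 384 genes of the whole table were called. The part of the clock genes in the members' change was not tested.

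**Figure D4:**
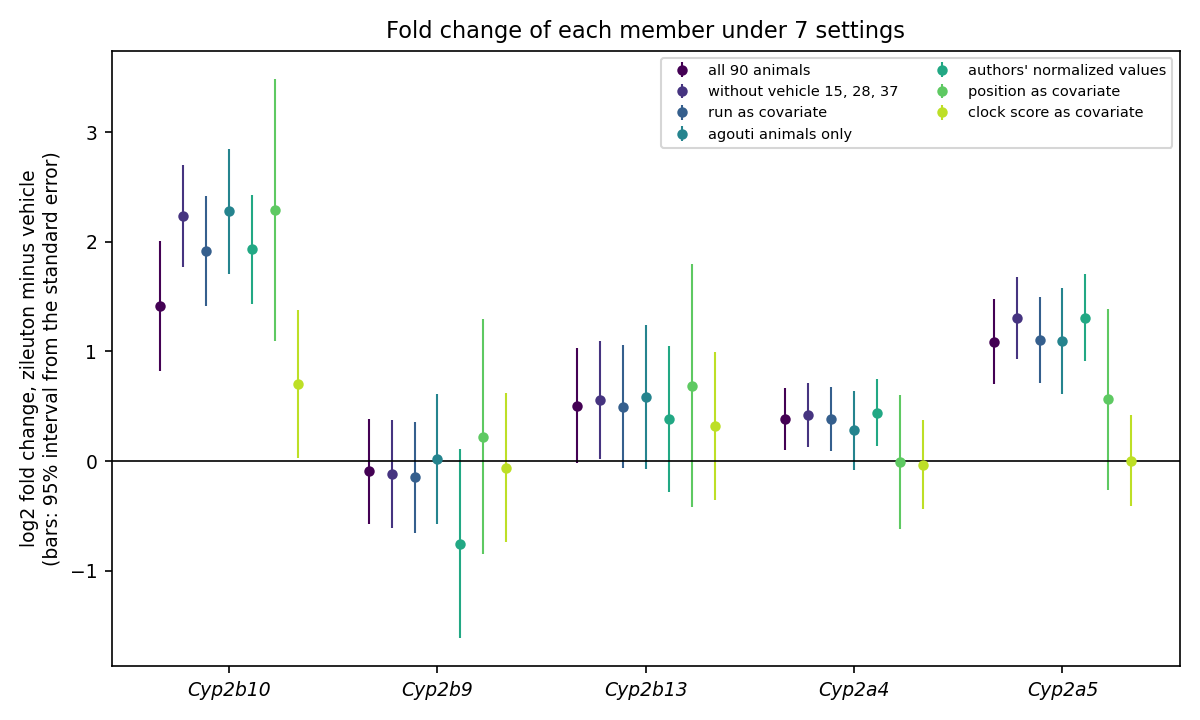
Log2 fold change of each member with bars for 95% intervals under 7 settings, from all 90 animals at the left to the clock score as a covariate at the right of each group. Cyp2b10 ranges from 0.70 to 2.29, Cyp2a5 from 0.00 to 1.31, and Cyp2a4 from -0.03 to 0.44.

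Within a group, Cyp2a4 varied with Cyp2a5, and Cyp2b9 with Cyp2b13. Over 20 relations (10 pairs in 2 groups, log2 CPM, permutation p adjusted over the 20), 6 passed and all 6 were positive, as were the 6 that passed without vehicle replicates 15, 28 and 37. Cyp2a4 and Cyp2a5 had r = 0.67 in 41 vehicle animals (permutation p = 1e-05, adjusted p = 0.0001; rho = 0.58, adjusted p = 0.000733) and r = 0.60 in 49 zileuton animals (permutation p = 1e-05, adjusted p = 0.0001; rho = 0.60, adjusted p = 0.0002). Without the 2 animals farthest from the median of Cyp2a4, r was 0.61 and 0.56. How far reads divided between these transcripts add to the relation was not tested.

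Cyp2b9 and Cyp2b13 had r = 0.57 among the 45 zileuton animals other than the 4 with nearly no Cyp2b9 (permutation p = 0.00082, adjusted p = 0.0041; rho = 0.56, adjusted p = 0.000733), and 0.41 without the 2 farthest. No r is given over all 49 because those 4 form a separate cluster. In vehicle animals r was 0.39 (permutation p = 0.0114, adjusted p = 0.0380; rho = 0.36, adjusted p = 0.0934), and 0.29 without the 2 farthest, where it no longer passed, and 0.32 with runs removed, where it did not pass either. Cyp2b10 and Cyp2b13 had r = 0.42 in vehicle (permutation p = 0.00669, adjusted p = 0.0268; rho = 0.41, adjusted p = 0.0411) and r = 0.51 in zileuton animals (permutation p = 0.00014, adjusted p = 0.000933; rho = 0.28, adjusted p = 0.155). Without the 2 animals farthest from the median of Cyp2b10 these were 0.34 and 0.33 and did not pass. In zileuton animals rho over all 49 did not pass either, and the size of r depends in part on those 2 animals. With runs removed, r in zileuton animals was 0.50 and passed (permutation adjusted p = 0.0019). In vehicle animals rho over all 41 passed, and r was 0.44 without replicates 15, 28 and 37 (permutation adjusted p = 0.0238). The other 14 relations, which include every pair of a Cyp2a with a Cyp2b gene, did not pass and ran from -0.26 to 0.26.

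**Figure D5:**
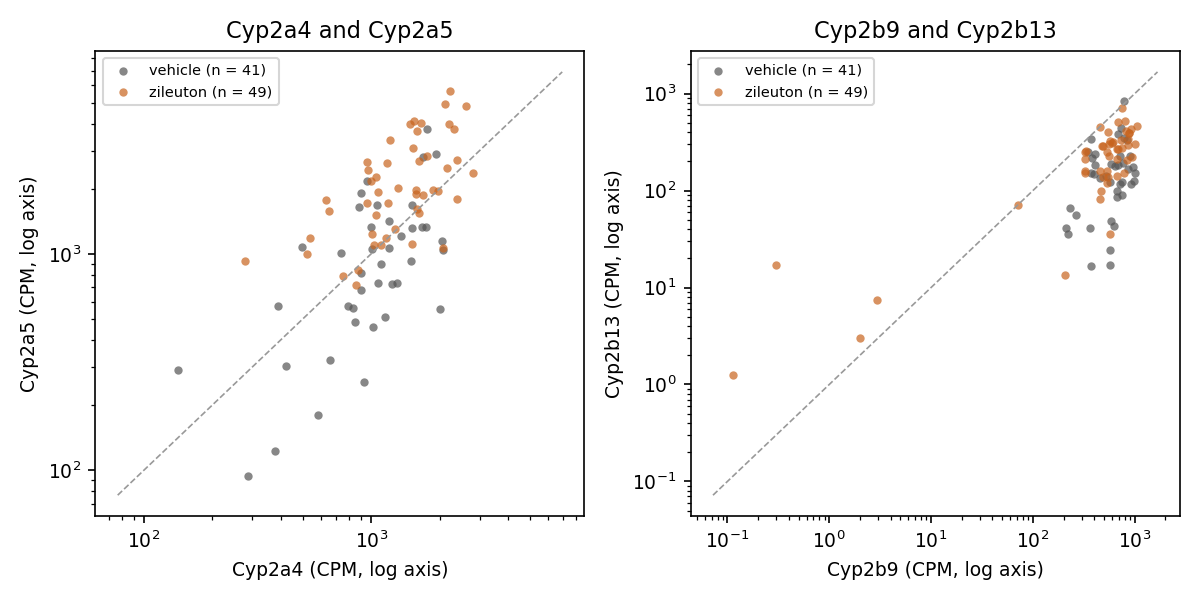
Level of Cyp2a5 against Cyp2a4 and of Cyp2b13 against Cyp2b9 in each animal, in CPM on log axes, with grey points for vehicle, orange points for zileuton and a dashed line where both genes are equal. Most zileuton animals lie above the line for Cyp2a5 and most vehicle animals below it, and 4 zileuton animals lie far to the left in Cyp2b9.

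Members were also compared with the receptors CAR (Nr1i3) and PXR (Nr1i2), with Por, with Alas1, the rate-limiting enzyme of haem synthesis, and with Dbp. Between groups, Nr1i3 ran from 47 to 134 CPM (median 92.8) in vehicle and from 62.5 to 177 CPM (median 98.8) in zileuton animals and was not called (0.14 ± 0.07, adjusted p = 0.143). Nr1i2 was 0.26 ± 0.06 higher (adjusted p = 2.38e-04), Por 0.92 ± 0.13 higher (adjusted p = 3.75e-08) and Alas1 1.22 ± 0.21 higher on the log2 scale (adjusted p = 2.24e-06). With the log2 CPM of Nr1i3 as a covariate, Cyp2b10 was at 1.36 ± 0.30 (adjusted p = 2.21e-04) and Cyp2a5 at 0.94 ± 0.19 (adjusted p = 4.01e-05). Cyp2a4 was then at 0.30 ± 0.14 (adjusted p = 0.113).

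Within groups, 15 of 50 relations between a member and these 5 genes passed, all positive. After the mean of each run was removed, 7 passed, and without vehicle replicates 15, 28 and 37 it was 13. Cyp2a5 followed Por and Dbp in both groups. With Por, r was 0.52 in vehicle (permutation p = 0.00075, adjusted p = 0.00469; rho = 0.49, adjusted p = 0.00712) and 0.75 in zileuton animals (permutation p = 1e-05, adjusted p = 0.00025; rho = 0.72, adjusted p = 0.00025), and 0.58 and 0.60 with runs removed. Without vehicle replicates 15, 28 and 37 the vehicle value was 0.40 (permutation adjusted p = 0.0459). With Dbp, r was 0.57 in vehicle (permutation p = 0.00011, adjusted p = 0.00137; rho = 0.62, adjusted p = 0.000875) and 0.59 in zileuton animals (permutation p = 1e-05, adjusted p = 0.00025; rho = 0.64, adjusted p = 0.00025). Without the 2 animals farthest from the median of Dbp, r was 0.48 and 0.61, and in vehicle animals without replicates 15, 28 and 37 it was 0.44 (permutation adjusted p = 0.0299).

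Cyp2a4 passed with Dbp in zileuton animals (r = 0.45, permutation p = 0.00243, adjusted p = 0.0115; rho = 0.48, adjusted p = 0.00486), where r was 0.38 and did not pass with runs removed (permutation adjusted p = 0.0546). In vehicle animals r of Cyp2a4 with Dbp was 0.09 and did not pass, and the 2 groups' values were not tested against each other. With Por, Cyp2a4 passed in zileuton animals (r = 0.53, permutation adjusted p = 0.00137), and also with runs removed (r = 0.39, permutation adjusted p = 0.0466). Its r with Por in vehicle animals was 0.26 and did not pass. Cyp2a5 also passed in zileuton animals with Alas1 (r = 0.42, permutation adjusted p = 0.0125) and Nr1i2 (r = 0.36, permutation adjusted p = 0.0373). Neither passed with runs removed, and Nr1i2 did not without the 2 farthest. Cyp2b10 passed with Alas1 in vehicle (r = 0.53, permutation p = 0.00027, adjusted p = 0.00258; rho = 0.44, adjusted p = 0.0219) and zileuton animals (r = 0.47, permutation p = 0.00062, adjusted p = 0.00443; rho = 0.53, adjusted p = 0.00108), and in neither with runs removed. Without vehicle replicates 15, 28 and 37 the vehicle value was 0.48 and passed. Its r of 0.57 with Por in vehicle animals (permutation p = 0.00254, adjusted p = 0.0115; rho = 0.22, adjusted p = 0.382) rests on the extreme animals, since it was 0.20 without the 2 farthest and 0.11 without vehicle replicates 15, 28 and 37. In zileuton animals r of Cyp2b10 with Por was 0.49 (permutation p = 0.00031, adjusted p = 0.00258; rho = 0.52, adjusted p = 0.00108). There it was 0.41 and still passed without the 2 farthest, and 0.36 with runs removed, where it did not pass (permutation adjusted p = 0.0584).

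With Nr1i3, the gene of CAR, Cyp2a5 passed in vehicle (r = 0.40, permutation p = 0.00956, adjusted p = 0.0348; rho = 0.36, adjusted p = 0.084) and zileuton animals (r = 0.46, permutation p = 0.00093, adjusted p = 0.00517; rho = 0.45, adjusted p = 0.00828). Both still passed without the 2 farthest animals, at 0.40 and 0.43. The vehicle value was 0.38 without replicates 15, 28 and 37 and did not pass (permutation adjusted p = 0.0607), and the zileuton value was 0.30 with runs removed and did not pass (permutation adjusted p = 0.111). Cyp2a4 passed with Nr1i3 in zileuton animals (r = 0.37, permutation p = 0.00975, adjusted p = 0.0348; rho = 0.31, adjusted p = 0.108), and not with runs removed. Cyp2b10 did not pass with Nr1i3, at r = 0.25 in vehicle and 0.05 in zileuton animals. Cyp2b9 and Cyp2b13 did not pass with any of the 5 genes.

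Among 11857 genes that are expressed at a mean log2 CPM of at least 0, those most like each member over 90 animals were ranked by r after each group was centred on its mean, as a description. For Cyp2b10 they were Cyp2c29 (r = 0.71), 4931406C07Rik (0.61) and Cyp2c55 (0.60). For Cyp2a5 they were the glutathione transferase Gstt3 (0.72), the PAR bZIP factor Tef (0.67) and Glt1d1 (0.63). For Cyp2a4 they were the thioesterase Acot3 (0.53), Bnip3 (0.51) and the aldehyde dehydrogenase Aldh3a2 (0.48). For Cyp2b13 they were Tmem109 (0.50), the carboxylesterase Ces1f (0.44) and Gapdh (0.44). For Cyp2b9 they were Oaz1 (0.55), Slc22a30 (0.47) and Gstm5 (0.47), but in vehicle animals alone these were -0.07, 0.10 and -0.03. They were 0.02, 0.13 and -0.01 in the 45 zileuton animals other than the 4 with nearly no Cyp2b9, so these values rest on those 4. Slc22a30 was itself nearly missing in 2 of them, replicates 23 and 43, and Gapdh in replicates 16 and 43. Slc22a30 was also nearly missing in vehicle replicates 12 and 38, and Gapdh in vehicle replicates 8, 20, 25 and 30. Cyp2b9 was 373 to 961 CPM in these vehicle animals. The values of Ces1f and Gapdh with Cyp2b13 were 0.12 and 0.02 in the same 45 zileuton animals, and that of Tmem109 was 0.50. All animals share 1 tissue, and library and run effects are part of these values.

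Spread between animals was wide for each member. The SD of log2 CPM was 1.23 in vehicle and 1.18 in zileuton animals for Cyp2b10, 1.26 and 1.87 for Cyp2b13, and 0.83 and 0.68 for Cyp2a4. It was 1.18 and 0.75 for Cyp2a5 and 0.61 and 2.73 for Cyp2b9. In vehicle animals the SD of Cyp2b10 exceeded that of 97.7% of 11857 genes, that of Cyp2b13 97.8% and that of Cyp2a5 97.5%. Without vehicle replicates 15, 28 and 37 the vehicle SD of Cyp2b10 was 0.93, above 96.0% of genes, and that of Cyp2a5 was 1.10, above 97.1%. The mean distance from the group median was 0.90 in vehicle and 0.60 in zileuton animals for Cyp2a5, and 0.49 and 1.20 for Cyp2b9. A limma test of these distances called 0 of the 5 members (adjusted p = 0.485 for Cyp2a5 and 0.524 for Cyp2b9), where 0.0337% of genes were called. At an unadjusted p under 0.05 there were 2 of 5 members and 8.65% of all genes tested.

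By coat colour, edgeR called 0 of the 5 members for black against agouti, where 0.0453% of genes were called, and 0 for white against agouti, where 0.00755% were. At an unadjusted p under 0.05 there were 1 and 0 of 5 members, and 6.53% and 7% of all genes. That 1 was Cyp2b10 in black animals, at 1.54 ± 0.38 (adjusted p = 0.139). Vehicle replicate 37 is black, and without replicates 15, 28 and 37 the value was -0.16 and did not pass. The response differed by coat in 0 of 5 members when both interaction terms were tested together, where 0% of genes were called, and 1 of 5 was at an unadjusted p under 0.05, as were 5.56% of all genes. It was again Cyp2b10. Taken singly, the black-coat and white-coat terms called 0 of 5 each, where 0.00755% and 0.0302% of genes were called, and Cyp2b10 had a term for black coats of -2.76 ± 0.78 (adjusted p = 0.524), which was -0.23 without the 3 libraries.

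Other Cyp2 genes of the cluster are given for comparison. Of 8 measured, 6 were tested, and 1, Cyp2a12, a P450 near Cyp2a5, was called higher (0.19 ± 0.07, adjusted p = 0.0459), where 14.4% of all genes tested were. Their median log2 fold change was 0.19, against 0.51 over the members.

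Other genes listed as CAR and PXR targets were called higher in 25 of 31 tested and lower in 0, with a median log2 fold change of 0.62. Cyp2c55, at 2.81 ± 0.37 (adjusted p = 3.90e-09), and the glutathione transferase Gstm3, at 1.85 ± 0.39 (adjusted p = 9.30e-05), led them. Of 24 regulators, 5 were higher and 5 lower. Over all genes tested, 14.4% were called higher and 14.8% lower, and the counts of lists here and in the next paragraph stand beside those shares. Tef was higher (1.10 ± 0.14, adjusted p = 1.31e-09), and the oestrogen receptor gene Esr1 (-0.64 ± 0.09, adjusted p = 1.76e-08) and Stat5b (-0.59 ± 0.07, adjusted p = 4.86e-11), which carries the growth hormone signal, were lower. Of other female-predominant genes, 4 of 24 were higher, among them Adam11 and Acot3, and 6 lower, led by A1bg (-1.31 ± 0.39, adjusted p = 0.00699) and Cyp3a41b. Of male-predominant genes, 3 of 13 were higher, led by Cyp4a12a (2.56 ± 0.55, adjusted p = 1.43e-04) and Mup20, and 0 lower.

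Of pericentral genes, the zone in which P450 enzymes are richest, 4 of 12 were higher, led by Cyp1a2 (1.03 ± 0.11, adjusted p = 9.37e-13) and Cyp2c37, and 2 lower, Gulo (-0.38 ± 0.08) and Lect2 (-0.24 ± 0.07). Cyp2c37 is also counted among the CAR and PXR targets. Of periportal genes, 2 of 12 were higher, Sds (0.55 ± 0.13) and Pck1 (0.51 ± 0.16). Another 8 were lower, led by Sox9 (-0.86 ± 0.14) and Cdh1 (-0.44 ± 0.16). The median log2 fold change was -0.19 over the pericentral and -0.37 over the periportal genes. Log2 fold changes of the 7 Kupffer cell markers ran from -0.06 to 0.20 and those of 5 erythroid markers from -0.32 to 0.16. Endothelial and cholangiocyte markers were called in 1 of 6 and 1 of 5, both lower. The cholangiocyte marker was Sox9, the same gene counted as periportal, with a vehicle mean of 3.88 CPM. Stellate cell markers were called in 2 of 6 and adipose and pancreas markers in 2 of 4, in opposite directions in each list. The part of these cells in the members' change was not tested. Skeletal muscle markers had a summed level with a median of 0.529 CPM in vehicle and 0.553 in zileuton animals, but up to 4207 and 2389 in single libraries.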

How the data were processed

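Liver RNA (25 mg of tissue, RNA integrity number of at least 8, TruSeq v2) was sequenced, per the labels' protocols. STAR, Partek, DESeq2 and mm10 are named in the submitters' processing notes, without versions. No source used here gives the counting step. The deposited raw table holds estimated counts (76.7% of values whole), which were rounded. The deposited normalized table holds signal, counts that the authors divided by DESeq2 size factors. Genes were filtered with filterByExpr and fitted with edgeR 4.0.16 (TMM, robust quasi-likelihood F test) over 90 animals. The biological coefficient of variation was 32.1%. Spread and log values were tested with limma 3.58.1, and DESeq2 1.42.0 was an alternative. Correlations and differences between members used log2 CPM with a prior count of 2 and 100000 permutations (two-sided, numpy 2.4.6). Scripts were tested on simulated data. Each animal is 1 library, grouped by its exposure label. Replicate numbers follow accession order and pair nothing. Coordinates come from GENCODE M21 (GRCm38), to which 97.9% of symbols matched 1 gene. Coding sequences were compared in place of proteins, which were not used here.

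The members, lists and tests were chosen with earlier results of these data known. Named genes are the members, Nr1i3, Nr1i2, Por, Alas1 and Dbp, the genes most changed in each direction in each list, and the 3 most like each member. Cyp2c29, Cyp2c55, Dbp and Arntl were used to find libraries apart from their group.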

Additional observations from a re-analysis of the deposited data

How the results depend on the processing

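Of 103 alternative values for the fold changes of the members, those without 1 library or 1 run aside, 91 kept their direction and their side of the threshold, 6 lost the call and 6 changed sign. The cause of these changes was not tested. With the clock score as a covariate the log2 fold changes were 0.70 for Cyp2b10, -0.033 for Cyp2a4 and 0.00374 for Cyp2a5, and 384 genes were called in place of 3878. With position within the run they were 0.22 for Cyp2b9, -0.0076 for Cyp2a4 and 0.57 for Cyp2a5, with 217 genes called. Cyp2a4 was 0.30 with Nr1i3 as a covariate, 0.28 in agouti animals, 0.35 without the libraries highest in muscle markers, and 0.30, 0.32 and 0.31 without run 1, 2 and 6. Cyp2b9 was 0.020 in agouti animals, 0.065 summed with Cyp2b13, 0.058 in that sum without vehicle replicates 15, 28 and 37, and 0.041 without run 1. Over the 8 fits without 1 run, Cyp2b10 ran from 1.15 to 2.19, Cyp2b9 from -0.17 to 0.04, Cyp2b13 from 0.36 to 0.62, Cyp2a4 from 0.30 to 0.49 and Cyp2a5 from 0.98 to 1.22.

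Over the 90 fits without 1 library, Cyp2b10 ran from 1.33 to 2.19 and was called in 90. It was 2.19 without vehicle replicate 37 and at most 1.44 without any other library. Cyp2b9 ran from -0.12 to -0.06 and was called in 0, Cyp2b13 from 0.45 to 0.65 and was called in 1, Cyp2a4 from 0.35 to 0.42 and was called in 89, and Cyp2a5 from 1.04 to 1.18 and was called in 90. Genes called ran from 3754 to 4082. No paired analysis was possible because the animals of the groups differ and their numbers follow accession order.

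For coat colour, Cyp2b13 in black animals was 0.12 and the black-coat term of Cyp2a5 -0.27 with run as a covariate. Without vehicle replicates 15, 28 and 37, Cyp2b10 in black animals was -0.16, Cyp2b9 -0.022, and the terms of Cyp2a5 were -0.049 for black and -0.16 for white coats. None of these passed under any setting. The spread of Cyp2b10 was -0.0040 with runs removed. The 40 alternative values for the differences in response between members kept their direction and side. They came from other prior counts, the authors' normalized values and leaving out vehicle replicates 15, 28 and 37. None entered run, position or the clock score, and none left out the 4 animals with nearly no Cyp2b9.

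Among relations between members, r changed sign with runs removed for Cyp2b10 and Cyp2a4 in vehicle (-0.0794) and Cyp2b9 and Cyp2a5 in zileuton animals (0.131). Without the 3 vehicle libraries it did so in vehicle animals for Cyp2b10 with Cyp2a4 (-0.0374) and Cyp2a5 (-0.0739) and for Cyp2b9 with Cyp2a4 (0.0617). Of relations with a regulator, 7 passed with runs removed in place of 15. There r changed sign in vehicle animals for Nr1i3 with Cyp2b9 (-0.0284), Dbp with Cyp2b9 (-0.0641) and Alas1 with Cyp2a5 (0.0331). In zileuton animals it did so for Cyp2b10 with Nr1i3 (-0.193) and Dbp (-0.00512), for Cyp2b9 with Nr1i2 (0.164), Por (0.125), Alas1 (0.219) and Dbp (0.00702), and for Cyp2b13 with Dbp (0.0688, and 0.000117 with a prior count of 8). Without the 3 vehicle libraries, Dbp had -0.188 with Cyp2b10 and -0.0336 with Cyp2a4 in vehicle animals. None of these sign changes concerned a relation that had passed.

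Depth limits the Cyp2b9 values nearest 0, which rest on as few as 2 estimated counts. Exposure, position within a run and clock phase moved together in these animals. The split of reads within each pair of similar genes is uncertain, as is that between Cyp2b13 and similar genes outside its pair.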
